A study of Saccharomyces cerevisiae with 15 samples.

Results

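The genes described here are 10 budding yeast genes linked to Start, the step in G1 at which a yeast cell commits to a new division. They are the G1 cyclin genes CLN1 (YMR199W), CLN2 (YPL256C) and CLN3 (YAL040C), the Pho85 cyclin genes PCL1 (YNL289W) and PCL2 (YDL127W), the endonuclease gene HO (YDL227C), the transcription factor genes SWI4 (YER111C), SWI6 (YLR182W) and MBP1 (YDL056W), and WHI5 (YOR083W), which encodes their inhibitor. The 10 were chosen by name, with the probe set of highest mean over 15 arrays to stand for each gene. Each had 1 probe set, so the mean decided nothing. All 10 were measured, out of 5449 yeast genes tested.

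The cells were Saccharomyces cerevisiae of strain YPH499, a haploid laboratory strain of mating type a. From the plasmid pEG(KG) they expressed human IRAK4, its catalytically inactive form IRAK4(KD), IRAK1 or IRAK2 under the GAL1 promoter, which galactose switches on. In human cells these proteins carry signals from Toll-like receptors. Control cells carried the plasmid with no insert, and all 5 groups, Control included, spent 6 h in galactose at 30 °C after 18 h in raffinose. Each group had 3 biological replicates with 1 Affymetrix array each, and no probe set measured a human IRAK gene. The a-cell genes STE2, MFA1, MFA2, STE6, BAR1, AGA2 and ASG7 had medians over the 15 arrays between 6.997 (BAR1) and 9.62 (MFA2) on the log2 scale. Of the alpha-cell genes, MF(ALPHA)1 stayed between 2.62 and 4.25, near the low end of the arrays, MF(ALPHA)2 between 4.59 and 5.39 and STE3 between 5.40 and 6.57, while SAG1 lay between 7.64 and 8.77. Array medians lay between 8.72 and 8.87. Replicates correlated across genes at 0.993 or above except for IRAK1 replicate 1, at 0.968 with the other IRAK1 arrays. Calls of the 10 genes that change without that array are given both ways.

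In late G1, Cln3 with the kinase Cdc28 begins to inactivate Whi5, which otherwise holds the transcription factor SBF in check. SBF is made of the DNA-binding protein Swi4 and its partner Swi6, and the related factor MBF of Mbp1 and Swi6. Once freed, SBF turns on CLN1 and CLN2, whose products remove more Whi5, together with PCL1, PCL2 and genes for budding and wall growth. MBF mainly drives genes of DNA synthesis. HO, which cuts the mating type locus, is also an SBF target, but in addition it needs the factor Swi5 and is normally expressed in mother cells. Laboratory strains of this lineage carry an inactive ho allele.

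The SBF-driven cyclin genes moved in opposite directions with the different kinases. CLN1, CLN2, PCL1 and PCL2 rose with active IRAK4, by 1.87-fold to 2.33-fold, and none of them was called with IRAK4(KD). CLN1, CLN2 and PCL1 fell with IRAK1, CLN2 by 1.40 on the log2 scale. They fell with IRAK2 too, CLN2 and PCL1 by smaller amounts, while IRAK2 and IRAK1 were not distinguished for CLN1 (0.05 ± 0.08). HO fell by 2.87 on the log2 scale with IRAK1, which is 7.30-fold. The size of that fall is uncertain, since HO read low in IRAK1. In the fit reported here the genes for the factors themselves, SWI4, SWI6 and MBP1, were not called against Control in any of the 4 groups. Some alternatives called SWI4 or MBP1 against Control, as given below. Values are log2 intensities, differences are given with the standard error of limma with 3 arrays a group, and a gene rose, fell or was called where the Benjamini-Hochberg adjusted p over all 5449 genes was under 0.05. The spread of each gene was estimated from all 15 arrays together. In bulk RNA, fewer cells in a stage of the cell cycle and less RNA per cell cannot be told apart.

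**Figure D1:**
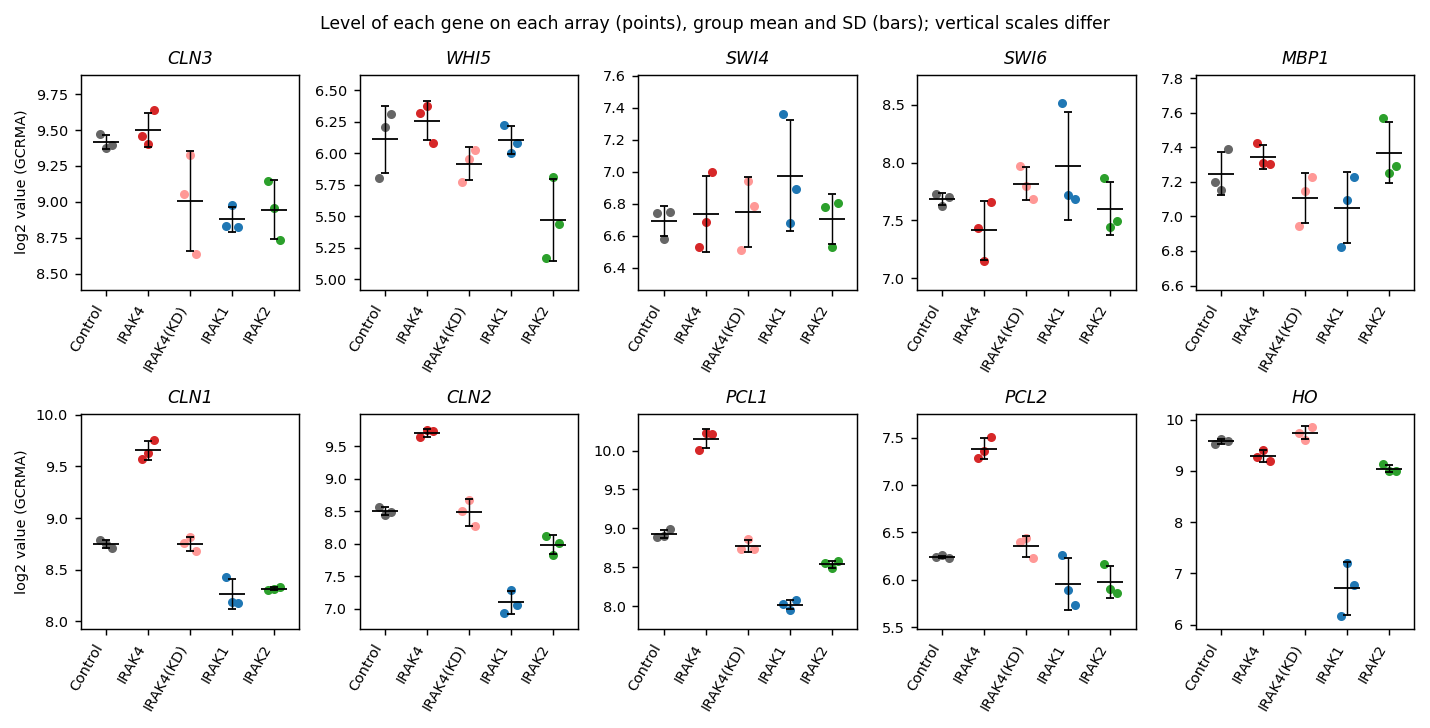
Log2 value (vertical axis, a separate scale for each gene) of the 10 genes on the 3 arrays of each of the 5 groups (points), with the group mean and SD (bars). CLN1, CLN2, PCL1 and PCL2 stand highest in IRAK4 with no overlap with another group, and HO lies between 6.16 and 7.19 in IRAK1 and at 9.003 or above in all other groups.

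The G1 cyclin genes CLN1 and CLN2 encode close paralogues that drive Cdc28 through Start and bud emergence. CLN2 read 8.57, 8.44 and 8.49 in Control replicates 1 to 3 and 9.63, 9.75 and 9.74 in IRAK4. With IRAK4(KD) it read 8.51, 8.67 and 8.26. It read 6.94, 7.29 and 7.06 with IRAK1 and 8.12, 7.82 and 8.02 with IRAK2. Thus the IRAK4 arrays lay above and the IRAK1 and IRAK2 arrays below all Control arrays, while the IRAK4(KD) arrays spanned them. CLN2 rose by 1.21 ± 0.11 in IRAK4 (adjusted p = 1.96e-06), fell by 1.40 ± 0.11 in IRAK1 (adjusted p = 2.03e-07) and fell by 0.52 ± 0.11 in IRAK2 (adjusted p = 0.0128). In IRAK4(KD) its difference from Control was -0.02, with a 95% interval of -0.26 to 0.23. The call in IRAK2 ended without IRAK2 replicate 2 (-0.43) or replicate 3 (-0.53).

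CLN1 covered a narrower range. Its arrays read 8.78, 8.75 and 8.71 in Control, 9.57, 9.63 and 9.76 in IRAK4 and 8.76, 8.81 and 8.68 in IRAK4(KD). They read 8.43, 8.19 and 8.17 in IRAK1 and 8.30, 8.32 and 8.33 in IRAK2. Again IRAK4 stood above Control without overlap, and IRAK1 and IRAK2 stood below it. The difference from Control was 0.91 ± 0.08 in IRAK4 (adjusted p = 1.18e-06), -0.49 ± 0.08 in IRAK1 (adjusted p = 1.73e-04) and -0.43 ± 0.08 in IRAK2 (adjusted p = 0.0064). In IRAK4(KD) it was 0.00, with a 95% interval of -0.17 to 0.18.

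In IRAK4 and IRAK1 the difference from Control was larger for CLN2 than for CLN1. The log2 value of CLN2 minus that of CLN1 was -0.30 to -0.22 on the Control arrays, -0.02 to 0.11 in IRAK4 and -1.49 to -0.90 in IRAK1, where it had shifted by -0.92. Neither of these groups overlapped Control, and the exact two-sided permutation p was 0.10 in both cases, the smallest that 3 arrays against 3 allow (0.167 after Benjamini-Hochberg adjustment over 10 such comparisons). In IRAK2 (-0.50 to -0.18, exact p = 0.6) and IRAK4(KD) (-0.42 to -0.14, exact p = 0.8) the values overlapped those of Control. Both probe sets carry the plain suffix that Affymetrix gives to sets matching a single gene, as do those of the other 8 genes.

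PCL1 and PCL2 encode cyclins of the kinase Pho85 that act beside Cln1 and Cln2 in late G1. PCL1 read 8.89, 8.91 and 8.99 in Control, 10.01, 10.22 and 10.22 in IRAK4 and 8.73, 8.86 and 8.73 in IRAK4(KD). In IRAK1 it read 8.03, 7.96 and 8.07, and in IRAK2 8.55, 8.49 and 8.58. All 4 groups were clear of the Control arrays, IRAK4 above and the other 3 below. PCL1 rose by 1.22 ± 0.08 in IRAK4 (adjusted p = 4.83e-08) and fell by 0.91 ± 0.08 in IRAK1 (adjusted p = 3.25e-07) and by 0.39 ± 0.08 in IRAK2 (adjusted p = 0.00794). The difference of -0.16 ± 0.08 in IRAK4(KD) was not called (adjusted p = 0.174).

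PCL2 read 6.24, 6.26 and 6.23 in Control, 7.29, 7.36 and 7.50 in IRAK4 and 6.40, 6.44 and 6.23 in IRAK4(KD). It read 6.26, 5.89 and 5.73 in IRAK1 and 6.17, 5.90 and 5.86 in IRAK2. Outside IRAK4 these are low values for this array. Without detection calls their precision is uncertain, and so is the size of differences that rest on them. The IRAK4 arrays were clear of all others, but the low values in IRAK1 overlapped Control through IRAK1 replicate 1. PCL2 rose by 1.14 ± 0.12 in IRAK4 (adjusted p = 6.84e-06), and its differences of -0.28 ± 0.12 in IRAK1 and -0.27 ± 0.12 in IRAK2 were not called (adjusted p = 0.0622 and 0.186). Without IRAK1 replicate 1 both were, PCL2 at -0.44 in IRAK1 (adjusted p = 0.00194) and -0.27 in IRAK2 (adjusted p = 0.0485). The limma call in IRAK1 also appeared with median centring (adjusted p = 0.0283), quantile normalization (-0.51, adjusted p = 0.00707) or array weights (adjusted p = 0.00104). That in IRAK2 appeared with array weights (adjusted p = 5.07e-04) and from only the 6 arrays compared (adjusted p = 0.0477). The log2 value of PCL1 minus that of PCL2 was 2.65 to 2.76 in Control and 1.77 to 2.34 in IRAK1, again without overlap (exact permutation p = 0.10, 0.167 adjusted over the 10 comparisons). It was 2.33 to 2.50 in IRAK4(KD), also without overlap and with the same p, while IRAK2 (2.38 to 2.72) and IRAK4 (2.72 to 2.87) overlapped Control.

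HO had the largest range of group means of the 10 genes, 3.03 on the log2 scale, and larger than that of 99.0% of all genes. It read 9.53, 9.62 and 9.60 in Control, 9.27, 9.42 and 9.19 in IRAK4 and 9.75, 9.61 and 9.87 in IRAK4(KD). The IRAK2 arrays read 9.13, 9.003 and 9.003, and the IRAK1 arrays 6.16, 7.19 and 6.78. Each IRAK1 array was thus far below every array of the other groups. HO differed from Control by -2.87 ± 0.18 in IRAK1 (adjusted p = 1.83e-08) and by -2.59 there without IRAK1 replicate 1. That array read HO in the range of the low PCL2 values, and without detection calls the size of the difference is uncertain. In IRAK4, where the cyclin genes rose, its difference was -0.29 ± 0.18 and not called (adjusted p = 0.202), though the arrays lay below those of Control. The difference of -0.53 ± 0.18 in IRAK2 was not called either (adjusted p = 0.075), nor that of 0.16 ± 0.18 in IRAK4(KD) (adjusted p = 0.55). Without IRAK1 replicate 1, which read lowest, HO was called lower in both IRAK4 (adjusted p = 0.0255) and IRAK2 (adjusted p = 0.00248), the latter also without IRAK1 replicate 2 (adjusted p = 0.0214). IRAK2 was then also called lower than IRAK4 for HO, at -0.25 (adjusted p = 0.0474). The SD of HO over the 3 arrays was 0.52 in IRAK1 and 0.05 to 0.13 in the other groups. From only the 6 arrays compared, HO was called lower than Control in IRAK4 (adjusted p = 0.0177) and in IRAK2 (adjusted p = 0.00149).

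**Figure D2:**
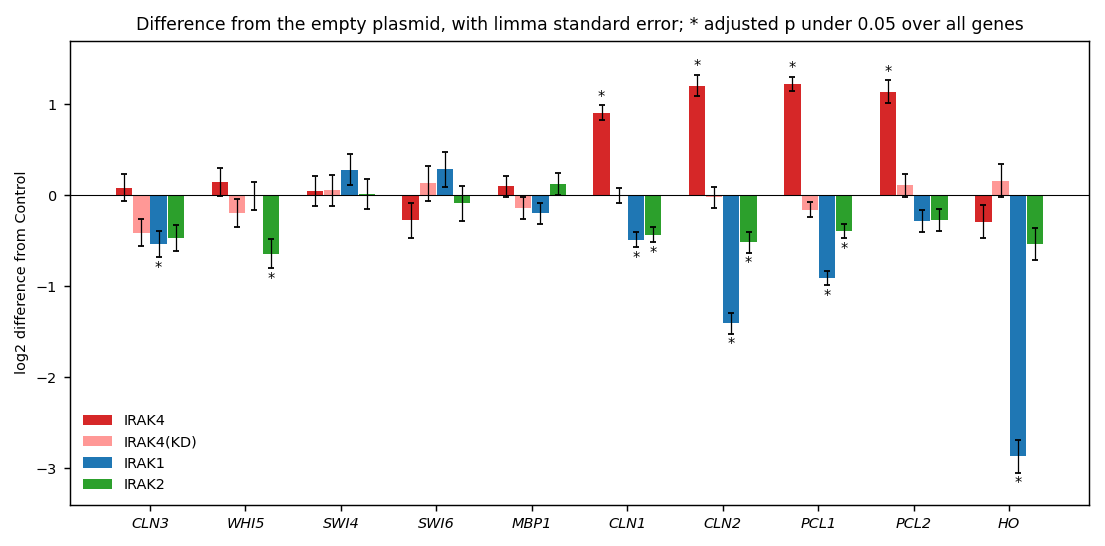
Log2 difference from Control (vertical axis) of the 10 genes in IRAK4, IRAK4(KD), IRAK1 and IRAK2 (bars), with the limma standard error and an asterisk where the adjusted p over all genes was under 0.05. The 4 bars of IRAK4 for CLN1, CLN2, PCL1 and PCL2 reach 0.91 to 1.22, and the bar of HO in IRAK1 reaches -2.87.

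Upstream of SBF, CLN3, the activator, fell in IRAK1. It read 9.47, 9.38 and 9.40 in Control, 9.46, 9.40 and 9.64 in IRAK4 and 9.05, 9.33 and 8.64 in IRAK4(KD). It read 8.83, 8.98 and 8.82 in IRAK1 and 9.14, 8.95 and 8.73 in IRAK2. IRAK4 overlapped Control, and the other 3 groups lay wholly below it. CLN3 fell by 0.54 ± 0.14 in IRAK1 (adjusted p = 0.00563), while the differences of -0.47 ± 0.14 in IRAK2 and -0.41 ± 0.14 in IRAK4(KD) were not called (adjusted p = 0.0557 and 0.0636). Both of these CLN3 calls appeared with each array centred on its median (adjusted p = 0.037 and 0.0369) and without IRAK1 replicate 1 (adjusted p = 0.0291 and 0.0382). Both also appeared with quantile normalization, array weights or the replicate number as a block in the 6 arrays compared. They did so too without IRAK4(KD) replicate 2, where the difference in IRAK4(KD) was -0.57. The call in IRAK2 appeared as well with robust eBayes (adjusted p = 0.0478) and from only the 6 arrays (adjusted p = 0.0103). It also appeared without IRAK4(KD) replicate 3 (adjusted p = 0.0211).

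WHI5, the inhibitor, read 5.81, 6.21 and 6.31 in Control, 6.32, 6.38 and 6.08 in IRAK4 and 5.77, 5.96 and 6.02 in IRAK4(KD). It read 6.23, 6.00 and 6.08 in IRAK1 and 5.17, 5.81 and 5.43 in IRAK2. These are low values for this array, and without detection calls their precision is uncertain. WHI5 fell by 0.64 ± 0.16 in IRAK2 (adjusted p = 0.0216), where the highest array reached the lowest of Control, and was not called in the other 3 groups. The call was lost without Control replicate 2 (-0.59) or 3 (-0.54) and without IRAK2 replicate 1 (-0.49) or 3 (-0.62).

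None of the genes of the factors was called against Control in the fit reported here. SWI4, the DNA-binding part of SBF and itself expressed in G1, ranged over the 15 arrays from 6.51 to 7.36, with group means within 0.28 of each other, a smaller range than that of most genes. SWI6, the shared subunit, ranged from 7.15 to 8.51, where the highest value was IRAK1 replicate 1, 0.81 above the mean of the other 2 IRAK1 arrays, and its group means spanned 0.56, more than those of 46.3% of all genes. MBP1, the DNA-binding part of MBF, ranged from 6.83 to 7.57. The 12 differences of these 3 genes from Control lay between -0.27 and 0.29. Of the 10 comparisons between groups, SWI4 was called in 0 (limma, with 0 at an unadjusted p under 0.05 as well). Without IRAK1 replicate 2 it was called in 2, higher in IRAK1 than in Control by 0.43 (adjusted p = 0.0424) and lower in IRAK2 than in IRAK1 (-0.42, adjusted p = 0.0473). SWI6 was called in 1, higher in IRAK1 than in IRAK4 by 0.56, a call that ended without IRAK1 replicate 1 (0.29) or IRAK4 replicate 1 (0.57) or 2 (0.42). SWI6 was called lower in IRAK4 than in IRAK4(KD) without IRAK1 replicate 1 (-0.40, adjusted p = 0.0167) and lower in IRAK2 than in IRAK1 without IRAK1 replicate 3 (-0.51, adjusted p = 0.0431). MBP1 was called in 1, higher in IRAK2 than in IRAK1 by 0.32, which ended without IRAK1 replicate 1 (0.21) or IRAK2 replicate 1 (0.22). MBP1 was called higher in IRAK2 than in IRAK4(KD) without IRAK1 replicate 1 (0.26, adjusted p = 0.0482) and lower in IRAK1 than in IRAK4 without IRAK1 replicate 3 (-0.39, adjusted p = 0.0232). Against Control, limma called MBP1 lower in IRAK1 with quantile normalization (-0.34, adjusted p = 0.0305). With array weights it was called higher in IRAK4 than in Control (0.20, adjusted p = 0.0249).

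By count, 4 of the 10 genes rose and 0 fell in IRAK4 against Control, where 28.2% of all genes were called higher and 16.4% lower (44.6% in all). After median centring 1285 of all genes were higher and 1166 lower in place of 1539 and 893, and the 10 genes again gave 4. The groups did not overlap for 5 of the 10, beside 61.7% of all genes. In IRAK4(KD) 0 of 10 were called by limma (1 at an unadjusted p under 0.05, CLN3), beside 17.7% of all genes in either direction (640 higher and 327 lower, or 538 and 424 after centring), and the arrays did not overlap for 2 of 10 (48.5% of all genes). With IRAK1 5 fell and 0 rose, beside 28.2% of all genes called lower and 30.6% higher (58.7% in all), with no overlap for 5 (60.4%). In IRAK2 4 fell and 0 rose, beside 3.38% of all genes called lower and 5.82% higher (9.19% in all), with no overlap for 6 (42.8%). The count in IRAK2 was 7 without IRAK1 replicate 1 and 2 without IRAK2 replicate 3. The median difference of the 10 was -0.38 in IRAK1 and -0.41 in IRAK2, against 0.02 and 0.01 over all genes. It was 0.12 in IRAK4 and -0.01 in IRAK4(KD), against 0.08 and 0.07. These 4 comparisons share the Control arrays.

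In the direct comparison of IRAK4 with IRAK4(KD), which differ in catalytic activity, the differences use no Control array. Their standard errors and p-values do, since the spread was estimated from all 15 arrays. PCL1 was higher in IRAK4 by 1.38 ± 0.08 (adjusted p = 2.06e-08), CLN2 by 1.23 ± 0.11 (adjusted p = 2.34e-06), PCL2 by 1.03 ± 0.12 (adjusted p = 2.42e-05) and CLN1 by 0.90 ± 0.08 (adjusted p = 1.80e-06). CLN3 was higher by 0.50 ± 0.14 (adjusted p = 0.0158). That call rested on few arrays, since it ended without IRAK4 replicate 3 (0.43) or IRAK4(KD) replicate 3 (0.31). In all 5 of 10 were higher and 0 lower, beside 19.7% of all genes higher and 15.3% lower (34.9% in all). HO, at -0.45 ± 0.18, was not called (adjusted p = 0.065) but was called lower without IRAK1 replicate 1 (adjusted p = 0.00219) or 2 (adjusted p = 0.015). From only the 6 arrays compared it was called lower too (adjusted p = 0.00518). The arrays of the groups did not overlap for 9 of the 10 genes, beside 52.4% of all genes.

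The kinase groups were also set against each other. IRAK1 against IRAK4 gave wide gaps, with 6 of the 10 lower and 1 higher, beside 28% of all genes lower and 18.3% higher (46.3% in all), and 8 of 10 did not overlap (46.3%). There CLN2 was lower by 6.11-fold, HO differed by -2.58, PCL1 by -2.13, PCL2 by -1.42, CLN1 by -1.39 and CLN3 by -0.62. IRAK2 against IRAK4 gave 6 lower and 0 higher, beside 29.4% and 21.4% of all genes (50.8% in all), with no overlap for 7 (65.4%). Against IRAK4(KD), IRAK1 gave 5 lower and 0 higher, beside 31.5% and 25.9% (57.4% in all), with no overlap for 4 (57.4%). IRAK2 gave 6 lower and 0 higher there, beside 16.2% and 10.4% (26.6% in all), with no overlap for 6 (53.9%). IRAK2 against IRAK1 gave 4 higher, HO, CLN2, PCL1 and MBP1, and 1 lower, WHI5 (-0.63), beside 30.6% and 29.2% (59.8% in all), with no overlap for 5 (62%).

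The order of the groups differed from gene to gene. For CLN2 and PCL1 it ran IRAK4, Control, IRAK4(KD), IRAK2, IRAK1 from high to low. Of the 4 steps between neighbours 3 were called for both genes, and Control and IRAK4(KD) were not distinguished. The step from IRAK4(KD) down to IRAK2 was 0.50 ± 0.11 for CLN2 and 0.24 ± 0.08 for PCL1. The call of this PCL1 step was lost with median centring (adjusted p = 0.0505) or quantile normalization (adjusted p = 0.0778). It was also lost without Control replicate 2 and without any single IRAK4(KD) or IRAK2 array (-0.19 to -0.26 as IRAK2 minus IRAK4(KD)). The step from IRAK2 to IRAK1 was 0.89 ± 0.11 for CLN2 and 0.52 ± 0.08 for PCL1. For CLN1 the steps below IRAK4 and from Control to IRAK2 were called, and IRAK2 and IRAK1 differed by 0.05 ± 0.08. For PCL2 the step below IRAK4 was the one called, and for HO that from IRAK2 to IRAK1 (2.33 ± 0.18). For CLN3 no step between neighbours was called, although the ends of its order, IRAK4 and IRAK1, differed by 0.62 ± 0.14 (adjusted p = 0.0029). WHI5 had 1 called step, from IRAK4(KD) to IRAK2 (0.45 ± 0.16, adjusted p = 0.0493). This call was lost with median centring, quantile normalization or robust eBayes and without any one of 10 arrays, namely Control replicate 2, IRAK4 replicates 1 and 2, IRAK1 replicates 2 and 3, IRAK2 replicates 1 and 3 and all 3 of IRAK4(KD). SWI4, SWI6 and MBP1 had 0 of 4, with unadjusted p of 0.187 or more at the steps.

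The genes whose values over the 15 arrays were most like those of the cyclins include other genes of late G1. For CLN2 they were TOS6 (Pearson r = 0.99), PRY2 and CSI2 (both 0.98). For PCL1 they were SVS1 (0.99), PRY2 and CSI2 (both 0.98), and for CLN1 they were SVS1, PLB3 and HCM1 (all 0.97). PCL2 was most like YPT31, SVS1 and PLB3 (0.96, 0.96 and 0.95). TOS6, CSI2, SVS1 and HCM1 are on the list of SBF targets used here. HO had other neighbours, RPS15, a ribosomal protein gene, REA1, a factor of ribosome assembly, and the cohesin gene MCD1 (all 0.98). These coefficients are descriptions over 15 arrays in 5 groups, and in each gene they rest mainly on the differences between groups.

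Other SBF targets, a list of 24 genes without the 10, mostly of budding and wall synthesis, mostly rose in IRAK4 and mostly fell in IRAK1. In IRAK4 17 of 24 rose and 0 fell, beside 28.2% of all genes higher and 16.4% lower, with a median of 0.53 against 0.08 for all genes. OCH1, a Golgi mannosyltransferase, rose by 1.48 ± 0.09, PLM2, a forkhead-associated domain protein, by 1.38 ± 0.15 and TOS6, a wall protein, by 1.18 ± 0.10. PLM2 read 4.56 to 5.22 in Control, about the lowest 5% of values on those arrays, so it is not shown to be above background there and the size of its difference is uncertain. In IRAK1 18 of 24 fell and 1 rose, beside 28.2% of all genes lower and 30.6% higher, with a median of -0.50 against 0.02. TOS6 fell by 1.51 ± 0.10 there, CSI2 by 1.18 ± 0.10 and GIC2, an effector of the polarity GTPase Cdc42, by 1.15 ± 0.08. The exception was OCH1, which rose by 0.44. GIC2 in turn was not called in IRAK4, at -0.14.

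In IRAK4(KD) 1 of the 24 was called higher, FKS1, a glucan synthase subunit (0.31 ± 0.08), and 0 lower, beside 11.7% and 6% of all genes. That count was 6 without IRAK1 replicate 1, 3 without IRAK1 replicate 3, 2 without IRAK4 replicate 3 and 0 without Control replicate 2 or 3 or IRAK4(KD) replicate 2. The median of 0.08 was close to the 0.07 of all genes. In IRAK2 7 of 24 fell and 0 rose, beside 3.38% and 5.82% of all genes, with a median of -0.28 against 0.01. The 3 largest were HCM1, a forkhead factor of S phase, at -0.61 ± 0.11, CSI2 at -0.49 ± 0.10 and MSB2, a signalling mucin, at -0.48 ± 0.12. This number was 12 without IRAK1 replicate 1, and 2 or 3 without any single Control or IRAK2 array. Between IRAK4 and IRAK4(KD) 13 of the 24 were higher in IRAK4 and 0 lower, beside 19.7% and 15.3% of all genes. OCH1 was higher by 1.63 ± 0.09, PLM2 by 1.297 ± 0.15 and CSI2 by 1.26 ± 0.10. PLM2 read 4.85 to 5.18 in IRAK4(KD), as low as in Control, so the size of this difference is uncertain too.

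**Figure D3:**
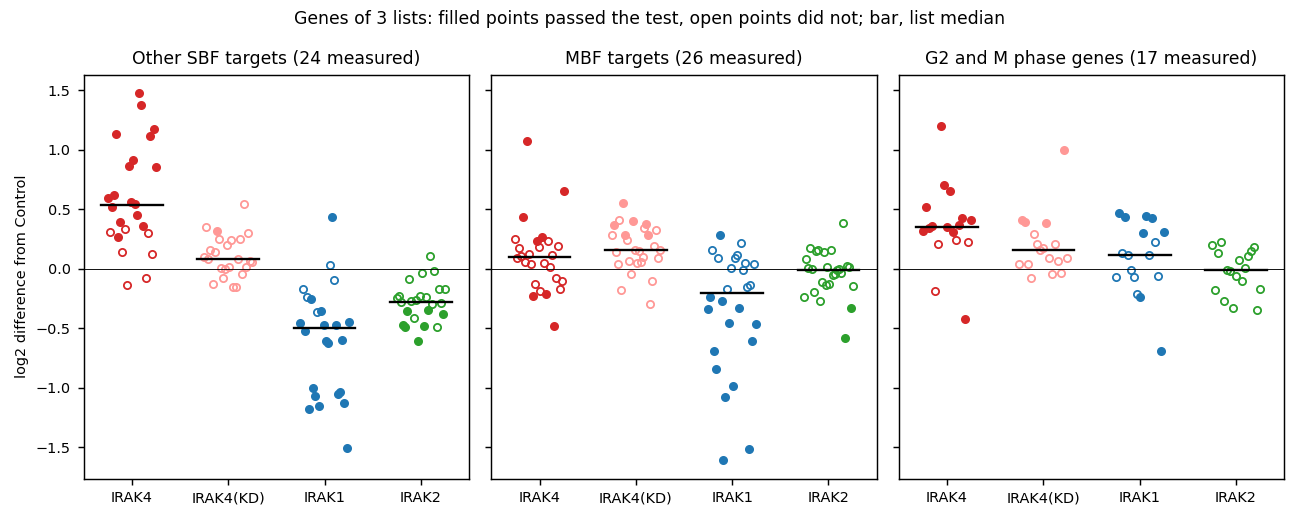
Log2 difference from Control (vertical axis) of each measured gene of 3 lists in IRAK4, IRAK4(KD), IRAK1 and IRAK2, with filled points for genes that passed the test, open points for those that did not and a bar at the list's median. The SBF targets have medians of 0.53 in IRAK4 and -0.50 in IRAK1, while the MBF targets have medians of 0.10 and -0.20.

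The MBF targets, genes of DNA replication and repair, were called lower in IRAK1 more often than higher. Of 26 measured, 13 fell and 1 rose, beside 28.2% of all genes lower and 30.6% higher, with a median of -0.20 against 0.02. MCD1 fell by 1.61 ± 0.09, RNR1, the large subunit of ribonucleotide reductase, by 1.52 ± 0.12 and POL1, the catalytic subunit of DNA polymerase alpha, by 1.08 ± 0.08. The one that rose was the checkpoint kinase gene DUN1 (0.29), and 0 rose without Control replicate 3 or with the replicate number as a block in the 6 arrays, while 2 rose without IRAK4 replicate 3. In IRAK4 5 rose and 3 fell, which for 26 genes is under the 28.2% and 16.4% of all genes, with DUN1 at 1.07 ± 0.10, SWE1, an inhibitor of Cdc28, at 0.65 ± 0.10 and RFA3, a subunit of replication protein A, at -0.48 ± 0.14. There 2 rose without Control replicate 1 or IRAK4 replicate 3 and 3 without Control replicate 2, and 1 fell without any of those or Control replicate 3. In IRAK4(KD) 6 rose and 0 fell, beside 11.7% and 6% of all genes, DUN1 by 0.55 ± 0.10, POL2 by 0.40 ± 0.09 and RFA1 by 0.37 ± 0.09. That number was 2 without Control replicate 3, 3 without IRAK4(KD) replicate 2 or 3 and 10 without IRAK1 replicate 1, where 1 also fell. In IRAK2 2 fell and 0 rose, beside 3.38% and 5.82% of all genes, RNR1 (-0.58 ± 0.12) and SPT21, a regulator of histone genes (-0.33 ± 0.09), with 0 to 1 left without any single Control or IRAK2 array, and 1 rose without IRAK1 replicate 1. Against IRAK4(KD) 2 were higher in IRAK4, DUN1 (0.52 ± 0.10) and SWE1 (0.50 ± 0.10), beside 19.7% of all genes. In the same comparison 5 were lower, beside 15.3%, with SMC3, a cohesin subunit, at -0.50 ± 0.15. The 5 were 3 without IRAK4 replicate 2 or IRAK4(KD) replicate 2 or 3 and 8 without IRAK1 replicate 1.

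The comparisons of IRAK4 with IRAK4(KD) and of IRAK1 with Control have no array in common, although they share the estimate of the spread. CLN1, CLN2, CLN3 and PCL1, 4 of the 10, were called higher in the first and lower in the second, which is 40% of the genes and 80% of the 5 called in each. Among the other SBF targets this held for 9 of 24 (37.5%), which is 69.2% of those called higher in the first and 50% of those called lower in the second. Among the MBF targets it held for 1 of 26 (3.85%, or 50% and 7.69% of the called), and among all genes for 74 of 5449 (1.36%, or 6.91% and 4.82% of the called).

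The regulators of Start, 23 genes around Cdc28, Whi5 and SBF, held some of the larger changes. XBP1, a stress-induced repressor whose known targets include G1 cyclin genes, rose by 1.44 ± 0.16 in IRAK4 and 1.77 ± 0.16 in IRAK1 and fell by 0.56 ± 0.16 in IRAK4(KD). Its part in the levels of the cyclin genes was not tested. YOX1, a repressor of early G1 genes and itself expressed in late G1, rose by 0.70 ± 0.11 in IRAK4, fell by 0.83 ± 0.11 in IRAK1 and fell by 0.49 ± 0.11 in IRAK2. CDC28, the cyclin-dependent kinase, rose by 0.78 ± 0.10 in IRAK4, and AZF1, a factor linked to glucose-dependent CLN3 expression, by 0.93 ± 0.17 in IRAK1. FAR1, the inhibitor of Cln kinases in pheromone arrest, rose by 0.48 ± 0.14 in IRAK4(KD) and by as much in IRAK4 (0.50), and fell by 0.50 ± 0.14 in IRAK2. CDC34, a ubiquitin-conjugating enzyme, fell by 0.38 ± 0.10 in IRAK4(KD) and rose in IRAK1 (0.38).

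By count 13 of the 23 rose and 0 fell in IRAK4, beside 28.2% and 16.4% of all genes. In IRAK1 10 rose and 3 fell (5 fell without IRAK1 replicate 1 or 2), beside 30.6% and 28.2%. In IRAK4(KD) 2 rose and 2 fell, beside 11.7% and 6%, and in IRAK2 0 rose and 2 fell, beside 5.82% and 3.38%. Each of these counts of 2 went to 0 without Control replicate 2 or 3, and without IRAK1 replicate 1 they were 4, 4 and 6. Between IRAK4 and IRAK4(KD) 12 were higher in IRAK4 and 0 lower, beside 19.7% and 15.3% of all genes. Among the 12 were XBP1 (2.00 ± 0.16), YOX1 (0.93 ± 0.11) and SSD1, an RNA-binding protein (0.60 ± 0.14).

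The other Pho85 cyclins and their kinase, 10 genes, gave calls in both directions. PCL5, a cyclin that targets Gcn4 for degradation, fell in all 4 groups, by 0.73 ± 0.12 in IRAK1, 0.41 ± 0.12 in IRAK2, 0.67 ± 0.12 in IRAK4 and 0.68 ± 0.12 in IRAK4(KD). The call in IRAK2 was marginal (adjusted p = 0.0484), and 0 of the 10 fell there after median centring or without any one of 11 arrays, namely Control replicates 2 and 3, IRAK4 replicates 1 and 2, IRAK1 replicate 2 and all those of IRAK4(KD) and IRAK2, while 3 fell without IRAK1 replicate 1. PCL10 and PCL6, cyclins tied to glycogen metabolism, differed between groups: PCL10 rose by 1.02 ± 0.11 in IRAK1 and 0.58 ± 0.11 in IRAK4(KD), and PCL6 rose by 0.55 ± 0.11 in IRAK1, 0.52 ± 0.11 in IRAK4 and 0.46 ± 0.11 in IRAK4(KD). In all 4 rose and 1 fell in each of IRAK1, IRAK4 and IRAK4(KD), and 0 rose and 1 fell in IRAK2. The shares of all genes higher and lower were 30.6% and 28.2% in IRAK1, 28.2% and 16.4% in IRAK4, 11.7% and 6% in IRAK4(KD), and 5.82% and 3.38% in IRAK2. In IRAK4(KD) the 4 became 1 without Control replicate 3 and 2 without Control replicate 2 or IRAK4(KD) replicate 1 or 2. In IRAK1 the 1 became 2 without IRAK1 replicate 1 or 2 or IRAK4 replicate 3. PCL7 rose by 0.58 ± 0.09 in IRAK4. Between IRAK4 and IRAK4(KD) 2 were higher in IRAK4, PHO85 (0.45 ± 0.10) and PCL7 (0.34 ± 0.09), beside 19.7% of all genes. In the same comparison 2 were lower, beside 15.3%, with PCL10 at -0.59 ± 0.11. The lower count was 1 without IRAK4 replicate 1 or 2 or IRAK4(KD) replicate 1 or 3.

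Regulators of HO, 15 measured genes, moved by less than HO itself in IRAK1, where 3 rose and 4 fell, for 15 genes no more than the 30.6% and 28.2% of all genes. UME6, a repressor subunit, rose by 0.82 ± 0.08 and NHP6B, a chromatin protein, by 0.56 ± 0.10, while MYO4, the myosin that carries ASH1 mRNA to the daughter cell, fell by 0.75 ± 0.11. SWI5, the activator that HO requires, rose by 0.41 ± 0.11 in IRAK4 and also in IRAK1 (0.31), where HO fell. ASH1, the repressor of HO in daughter cells, fell in IRAK1 as well (-0.22). It fell by 0.49 ± 0.09 in IRAK2, where SHE2, which binds ASH1 mRNA, rose by 0.35 ± 0.08, and these were the 2 calls there. Of all genes 5.82% were called higher and 3.38% lower in IRAK2. SHE2 was not called without Control replicate 3 or IRAK2 replicate 3. In IRAK4 5 rose and 2 fell, beside 28.2% and 16.4% of all genes, among them SNF2 (0.41 ± 0.11) and MYO4 (-0.50 ± 0.11). There 2 rose without Control replicate 3 or IRAK4 replicate 3, and 4 fell without IRAK4 replicate 3 or IRAK1 replicate 1, but 1 without IRAK4 replicate 1. In IRAK4(KD) limma called 0 of 15 (1 higher and 1 lower at an unadjusted p under 0.05), beside 17.7% of all genes. Without IRAK1 replicate 1 it called 2 higher and 1 lower. Between IRAK4 and IRAK4(KD) 1 was higher, SWI5 (0.32 ± 0.11), beside 19.7% of all genes. In the same comparison 2 were lower, SWI1, a chromatin remodelling subunit (-0.64 ± 0.22), and NHP6A (-0.28 ± 0.09), beside 15.3%. The 1 went to 0 without IRAK4 replicate 2 or 3 or IRAK4(KD) replicate 1 or 3, and to 3 without IRAK1 replicate 1. The 2 went to 0 or 1 without any single IRAK4 or IRAK4(KD) array other than IRAK4 replicate 2. The part of these regulators in the level of HO was not tested.

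Of 17 G2 and M phase genes 12 rose and 1 fell in IRAK4, beside 28.2% and 16.4% of all genes, with the mitotic cyclins CLB1 at 1.20 ± 0.10, CLB2 at 0.70 ± 0.14 and CLB4 at 0.65 ± 0.11. Their summed log2 level was 12.47 to 12.54 in Control and 12.86 to 13.03 in IRAK4. It was 12.52 to 12.71 in IRAK1, 12.51 to 12.56 in IRAK2 and 12.64 to 12.69 in IRAK4(KD). It was thus highest where the G1 cyclin genes were highest, without overlap with Control. In IRAK4(KD) it also lay above Control without overlap, although CLN1, CLN2, PCL1 and PCL2 were not called there. In IRAK1 it overlapped Control while CLN1, CLN2 and PCL1 did not. Its part in the levels of the cyclin genes was not tested. In IRAK1 6 of the 17 rose, a share near the 30.6% of all genes, ASE1 by 0.47 ± 0.11 and DBF2 by 0.44 ± 0.09 among them, and 2 fell, beside 28.2%, with SFG1 at -0.69 ± 0.13 (1 fell with the replicate number as a block, or without Control replicate 1 or 2 or IRAK1 replicate 3). In IRAK4(KD) 4 rose, beside 11.7% of all genes, SFG1 by 1.00 ± 0.13, ASE1 by 0.41 ± 0.11 and BUD4 by 0.39 ± 0.10 among them, and 1 without Control replicate 2 or 3 or IRAK4(KD) replicate 1 or 2. SFG1 read 5.05 to 5.43 in IRAK1, about the lowest 5% of values on those arrays, and 5.77 to 6.11 in Control, also low. The size of its differences from Control is thus uncertain. In IRAK2 limma called 0 (2 higher and 3 lower at an unadjusted p under 0.05), beside 9.19% of all genes, and 1 lower without IRAK1 replicate 1. Between IRAK4 and IRAK4(KD) 6 were higher and 2 lower in IRAK4, beside 19.7% and 15.3% of all genes.

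Mating type genes are relevant because pheromone signalling halts cells at Start. The summed log2 level of the 7 a-cell genes was 11.59 to 11.81 in Control, 11.34 to 11.90 in IRAK1 and 11.58 to 11.63 in IRAK2. It was 11.38 to 11.44 in IRAK4 and 12.20 to 12.27 in IRAK4(KD). It stood apart from all other groups in IRAK4(KD), where 4 of 7 rose and 0 fell and where CLN1 and CLN2 were not called. In IRAK4, where 3 fell, the sum lay below Control but within the range of IRAK1. In IRAK1 3 rose and 3 fell, and in IRAK2 2 fell. Of all genes 11.7% were called higher and 6% lower in IRAK4(KD), and 28.2% and 16.4% in IRAK4. The shares were 30.6% and 28.2% in IRAK1, and 5.82% and 3.38% in IRAK2. Of the 4 alpha-cell genes measured 1 rose in IRAK1, 0 in IRAK2, 2 in IRAK4 and 1 in IRAK4(KD), and 0 fell in any group. Their part in the cyclin results was not tested.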

How the data were processed

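RNA from 15 cultures was measured on Affymetrix arrays with biotin label, as the sample labels state. The deposited values are log2 intensities that the authors made with GCRMA, per the submitters' processing notes, with the version not given in the sources used here. Their range fits a log2 scale. Neither scans nor detection calls were used, and precision is limited by having 3 arrays a group.

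Of 5716 probe sets 5498 were paired with 1 gene by the platform annotation, and 218 were left out. Symbols were updated through Entrez identifiers with the RefSeq table of assembly R64, and the probe set of highest mean was kept for the 47 genes with several, leaving 5449 genes. No filter or further normalization was applied. Group means of all 15 arrays were fitted with limma 3.58.1 in R 4.3.3 (lmFit, eBayes), with 10 pairwise comparisons, two-sided tests, Benjamini-Hochberg adjustment over all genes within each, and calls at an adjusted p under 0.05. The limma procedure was tested on simulated data. Figures used Python 3.11.15 and matplotlib 3.10.9.

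The 10 genes and the gene lists were chosen with earlier results of these data known, so no count here is independent support. List genes are named where they were among the 3 largest called changes of their list in a comparison, or the 3 genes most like a member. OCH1, DUN1, SWI5, ASH1 and CDC34 in IRAK1, and GIC2 and FAR1 in IRAK4, were named after their values were seen. One further gene list is not reported here. Some genes are on several lists. Summed levels are log2 of the summed linear values of a list on an array.

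The labels do not say what the replicate numbers mean, and p-values measure the spread between these cultures. After group means were removed, same-numbered arrays correlated at 0.19, 0.10 and 0.35 in IRAK1 and Control, all over 0.1 before rounding, so the numbers were taken to pair those arrays. They did so in no other comparison. Alternatives varied the scaling (median centring, quantile normalization), the genes (dim genes removed, probe sets averaged), the test (robust eBayes with trend, array weights, a 2-fold limit, the replicate block) and the arrays (the 6 compared, or all but 1).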

Additional observations from a re-analysis of the deposited data

How the results depend on the processing

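Of 2500 recomputed differences of the 10 genes under 25 alternatives in 10 comparisons, 2308 kept their direction and their side of the threshold, 59 gained a call, 79 lost one (27 of them by the 2-fold limit alone) and 54 changed sign. None of the 54 had a called value, before or after, and the largest was 0.12 in size. The 2-fold limit reduces calls by construction, and otherwise the cause was not tested. Leaving out an array could raise as well as lower a count: without IRAK1 replicate 1, the genes called over the whole table went from 967 to 1857 in IRAK4(KD) and from 501 to 1180 in IRAK2 against Control. Every difference from Control of CLN1, CLN2, PCL1 and PCL2 in IRAK4 and of CLN1, CLN2, CLN3, PCL1 and HO in IRAK1 kept its direction in all 25 alternatives, and its call too, except that the 2-fold limit ended those of CLN1 in both groups and of CLN3 and PCL1 in IRAK1.

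The number of the 10 genes called changed by over 1.5 times in these cases. With the 2-fold limit it was 2 for IRAK1 against Control and against IRAK4(KD), 0 for IRAK2 against Control and against IRAK4(KD), 1 for IRAK2 against IRAK1 and 3 for IRAK4 against IRAK4(KD). With array weights it was 9 for IRAK4 against IRAK4(KD), 7 for IRAK2 and for IRAK4 against Control, and 1 for IRAK4(KD) against Control. From only the 6 arrays it was 8 for IRAK4 against IRAK4(KD) and 7 for IRAK2 against Control. For IRAK4(KD) against Control it was 1 with median centring, with quantile normalization and with the replicate block in the 6 arrays, and for IRAK2 against IRAK4(KD) it was 3 with quantile normalization. Leaving out single arrays gave 2 to 7 for IRAK2 against Control, 3 to 7 for IRAK2 against IRAK4(KD) and 0 to 1 for IRAK4(KD) against Control. The replicate block in all 15 arrays changed no count of the 10 (4, 0, 5 and 4 for IRAK4, IRAK4(KD), IRAK1 and IRAK2 against Control). In the paired comparison of IRAK1 with Control the block in the 6 arrays also gave 5.

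The changes of sign were these. With median centring CLN1 was at -0.037 in IRAK4(KD) and SWI4 at -0.0011 in IRAK2 and -0.026 in IRAK4, all against Control, and SWI4 at 0.0245 in IRAK2 against IRAK4. With quantile normalization the values were -0.036 for CLN1 in IRAK4(KD), -0.0198 for MBP1 and -0.10 for SWI4 in IRAK4, -0.02004 for SWI4 in IRAK2 and -0.0047 for WHI5 in IRAK4 against Control. They were 0.082 for SWI4 in IRAK2 against IRAK4 and -0.0435 for WHI5 in IRAK1 against IRAK4(KD). With array weights they were 0.048 for CLN2 in IRAK4(KD) and -0.018 for SWI4 in IRAK4 against Control. They were -0.030 for CLN3 in IRAK2 against IRAK1, -0.073 for MBP1 and 0.0905 for SWI4 in IRAK2 against IRAK4, and 0.059 for MBP1 and -0.11 for SWI6 in IRAK1 against IRAK4(KD). Leaving out single arrays gave, against Control, -0.027 to 0.039 for CLN1 and -0.11 to 0.088 for CLN2 in IRAK4(KD). SWI4 ran from -0.043 to 0.10 in IRAK2, -0.085 to 0.15 in IRAK4 and -0.044 to 0.17 in IRAK4(KD), and WHI5 from -0.16 to 0.10 in IRAK1 and -0.0029 to 0.25 in IRAK4. Against IRAK4(KD) it gave -0.31 to 0.033 for CLN3, -0.15 to 0.056 for MBP1 and -0.12 to 0.30 for SWI6 in IRAK1, -0.25 to 0.10 for CLN3 and -0.16 to 0.057 for SWI4 in IRAK2, and -0.14 to 0.095 for SWI4 in IRAK4. In IRAK2 it gave -0.034 to 0.17 for CLN3 and -0.10 to 0.17 for PCL2 against IRAK1, and -0.077 to 0.085 for MBP1 and -0.14 to 0.10 for SWI4 against IRAK4.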
